A study of Rattus norvegicus with 9 samples.

Results

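Fc receptors bind the constant part of antibodies and link them to phagocytes and lymphocytes. The 8 genes described here, of 32623 genes in the table, were taken by name: the IgG receptors Fcgr1a, Fcgr2a, Fcgr3a and Fcgr2b, the signalling chain Fcer1g, the Fc receptor-like gene Fcrl2, and the kinases Syk and Btk. The choice was made with earlier results of these data known. Each name matched a single row. They were measured by RNA sequencing of spinal cord from female Wistar rats, 8 weeks old, in 3 groups of 3 libraries. In the Sham group the lamina over the cord was opened and the cord was not injured. Rats of the C_Spinal group had an injured cord and received distilled water by gavage. Rats of the T_Spinal group had an injured cord and were gavaged daily with 3 mL of Modified Erxian Decoction (MED), a herbal mixture. The labels used here give no time after injury, method or level of injury, length of cord taken or source animal of each library. The p-values therefore measure library-to-library spread only, and that spread may be technical.

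Activating Fc receptors carry no signalling motif of their own in most cases and pair with a chain that holds an ITAM, a short stretch with a pair of tyrosines. When receptors are clustered by antibody-coated targets, Src family kinases phosphorylate the ITAM, Syk docks on it through its SH2 domains, and Tec family kinases such as Btk pass the signal to phospholipase C. The receptor encoded by Fcgr2b carries an ITIM instead, which recruits phosphatases that dampen the signal. In nervous tissue these genes are known chiefly from microglia and from macrophages that enter after damage.

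Library totals ran from 57.0 to 69.8 M counts (M, counts in units of 1e+06). All 13 spinal cord markers, among them Mbp of myelin, had counts in every group, with FPKM (fragments per kilobase of transcript and M fragments) that summed to 26866 to 27344 for Sham, 10225 to 10319 for C_Spinal and 11828 to 12275 for T_Spinal. The 20 microglia and macrophage markers summed to 263 to 274 FPKM in Sham libraries, 4625 to 4727 in those of C_Spinal and 4980 to 5078 in those of T_Spinal, and all but Siglech had counts in every group. The C_Spinal sum rests largely on Lyz2, Gpnmb and Cd68, with means of 1832, 1559 and 625 FPKM. Of the 19 markers tested, 17 were higher and 2 lower in C_Spinal than in Sham. The 2 lower were P2ry12 and Sall1, with log2 fold changes of -0.35 and -0.25. In bulk tissue, more cells of a type and more RNA per cell cannot be told apart. The part of cell content in the results below was not tested.

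In Sham cord the 8 genes were low, apart from the signalling chain. Fcer1g stood at 34.9 ± 2.77 FPKM (SD, n = 3), above the range of any receptor. Fcgr2a, Fcgr3a and Fcgr2b followed at means of 3.19, 3.11 and 3.04 FPKM, with ranges over libraries that overlapped from each to the next. Fcgr1a, Syk and Fcrl2 had 2.02, 1.36 and 1.14 FPKM, and Btk was lowest at 0.691 ± 0.0709. Of these, Fcrl2 varied most between Sham libraries, with 217 counts in replicate 1 and 74 in each of the other two. In C_Spinal the order of FPKM levels was Fcer1g, Fcgr2a, Fcrl2, Fcgr2b, Fcgr3a, Fcgr1a, Syk and Btk, and only the ranges of Fcgr2b and Fcgr3a overlapped. In T_Spinal Fcrl2 stood second, above Fcgr2a, and no neighbouring ranges overlapped.

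**Figure D1:**
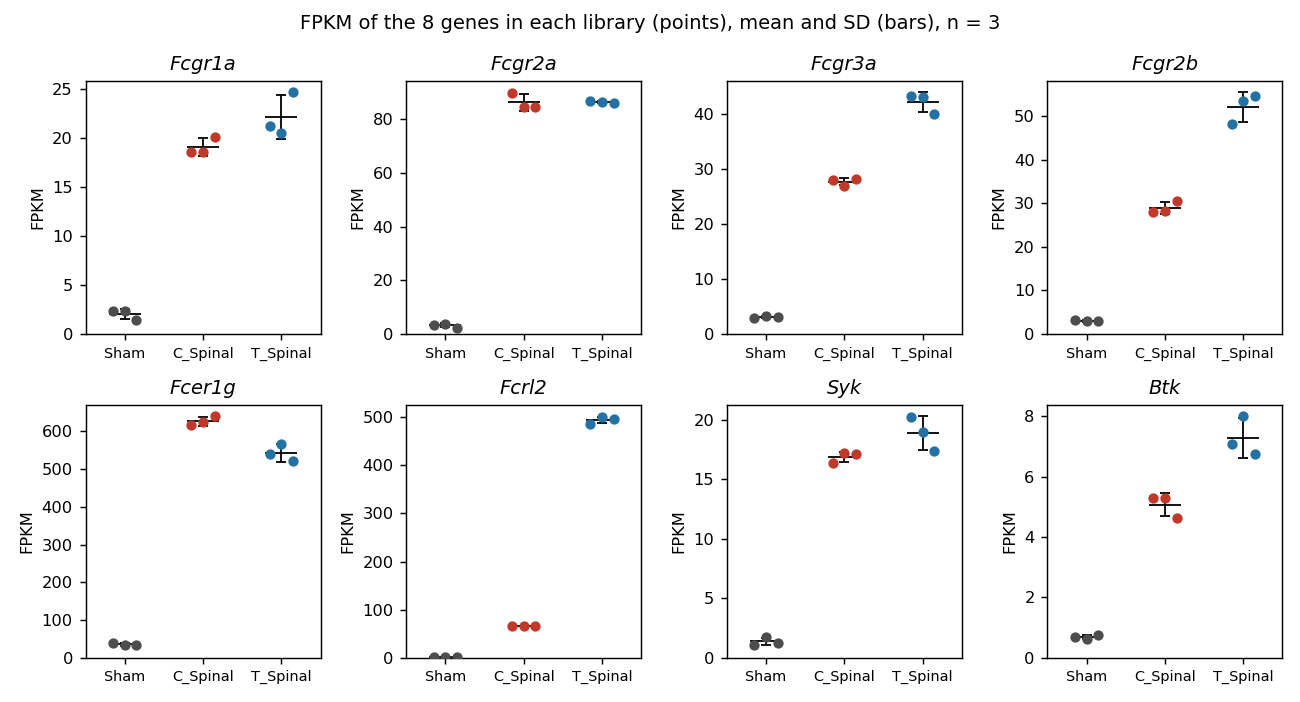
FPKM (vertical axis, linear, from 0) of the 8 genes in each of the 9 libraries, by group; points are libraries, and the bar and whiskers give mean and SD of 3. Sham libraries lie lowest in every panel, and Fcrl2 rises from at most 66.1 FPKM in C_Spinal to at least 487 in T_Spinal.

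The first comparison, C_Spinal against Sham, asks how these genes differed in injured cord of water-fed rats. All 8 were higher in C_Spinal by edgeR at an adjusted p below 0.05 and by more than 2-fold, from 6.71-fold for Btk to 52.1-fold for Fcrl2. Over all 14791 genes tested 75.4% were called, 38.1% higher and 37.4% lower, and 17.9% were called and at least 2-fold higher. The median log2 fold change of the 8 genes was 3.31, against 0.02 over all tested genes. The groups did not overlap for any of the 8, as was so for 45.6% of all genes in this direction and 33.9% in the other.

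Among the activating receptors, Fcgr1a, the high-affinity IgG receptor, had 2.29, 2.30 and 1.46 FPKM in the Sham libraries and 18.6, 18.5 and 20.1 in C_Spinal. Its log2 fold change was 3.11 (SE 0.153, adjusted p = 3.09e-08). Fcgr2a, a low-affinity IgG receptor for which RefSeq lists Fcgr3 and fcRIII among the older names, had 3.34, 3.83 and 2.39 FPKM in Sham and 89.8, 84.5 and 84.5 in C_Spinal. The Sham values of both genes were lowest in replicate 3, far under every C_Spinal value. At a log2 difference of 4.63 (SE 0.126, adjusted p = 5.00e-10), the rise of Fcgr2a was 24.7-fold. Fcgr3a, listed by RefSeq also as Fcgr4 and CD16-2, went from 2.85, 3.32 and 3.15 FPKM to 28.1, 27.0 and 28.1, a log2 difference of 3.03 (SE 0.0691, adjusted p = 8.86e-11).

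Fcgr2b, the inhibitory IgG receptor, had 3.29, 2.91 and 2.93 FPKM in Sham and 27.9, 28.3 and 30.4 in C_Spinal. Its log2 fold change of 3.12 (SE 0.0643, adjusted p = 4.40e-11) was smaller than that of Fcgr2a and close to those of Fcgr1a and Fcgr3a. Differences between genes in fold change were not tested. Within the 4 IgG receptors, which summed to 11.4 ± 1.27 FPKM in Sham and 162 ± 3.28 in C_Spinal, Fcgr2a made up 27.8% ± 3.53 in Sham and 53.3% ± 1.42 in C_Spinal. The share of Fcgr2b was 27.0% ± 3.09 and 17.8% ± 0.831 in the same order.

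Fcer1g encodes the common gamma chain, the ITAM partner of activating Fc receptors. It had 38.0, 32.5 and 34.3 FPKM in Sham and 617, 624 and 641 in C_Spinal, the highest level of the 8 genes in both groups. Its log2 fold change was 4.04 (SE 0.0558, adjusted p = 4.30e-12). Per unit of length it stood at 4.27 ± 0.753 times the sum of Fcgr1a, Fcgr2a and Fcgr3a in Sham and 4.72 ± 0.169 times in C_Spinal, ranges that overlapped.

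The 2 kinases rose as well. Syk, which binds phosphorylated ITAMs, had 1.10, 1.73 and 1.27 FPKM in Sham and 16.4, 17.2 and 17.1 in C_Spinal (log2 fold change 3.51, SE 0.133, adjusted p = 4.32e-09). Btk, the kinase known from B cell receptor signalling and also made by myeloid cells, had 0.699, 0.616 and 0.757 FPKM in Sham and 5.28, 5.31 and 4.63 in C_Spinal (log2 fold change 2.75, SE 0.121, adjusted p = 1.18e-08). Every C_Spinal library lay far above every Sham library for both kinases.

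Fcrl2, for which RefSeq lists Fcrls and Msr2 as synonyms, is an immunoglobulin-domain protein of the Fc receptor-like family; mouse Fcrls is known as a gene of resident microglia. It had 1.95, 0.668 and 0.808 FPKM in Sham and 66.1, 65.7 and 66.0 in C_Spinal. The C_Spinal libraries lay within 1 FPKM of each other, while Sham replicate 1 stood above the other two. The log2 fold change was 5.71 (SE 0.268, adjusted p = 1.46e-08), and 6.36 (SE 0.0682) without Sham replicate 1.

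Counts of the low-affinity receptors carry some doubt about which copy they belong to. On chromosome 13 of the deposited table, for which the labels name no build, Fcgr3a (89385859 to 89396051, plus strand) lies inside the span of Fcgr2b (89327794 to 89433815, minus strand). Fcgr2a (91146876 to 91228935, minus strand) overlaps on its own strand a further row, LOC108348047, described there as a low affinity IgG receptor III. That row had 1.83 ± 0.396, 50.6 ± 3.28 and 53.0 ± 0.769 FPKM in the 3 groups, given here and below in the order Sham, C_Spinal, T_Spinal. With its counts added to Fcgr2a the log2 fold change after injury was 4.64 (SE 0.0820), and with Fcgr2b and Fcgr3a counted as 1 gene it was 3.10 (SE 0.0450). Both sums were tried after the data had been seen. Fcrl2 (chromosome 2, 186595051 to 186606172, minus strand) lies inside Fcrl1, which had at most 35 counts in any library. Fcgr1a lies on chromosome 2 (198430530 to 198458041), Fcer1g on 13 (89601896 to 89606326), Syk on 17 (12614311 to 12669573) and Btk on X (105360922 to 105390580), all on the minus strand.

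The second comparison, T_Spinal against C_Spinal, asks what differed between injured cords of rats given the decoction and rats given water. Of the 8 genes, 4 were higher in T_Spinal (Fcrl2, Fcgr2b, Fcgr3a and Btk), 1 was lower (Fcer1g), and Fcgr1a, Fcgr2a and Syk did not pass the test. Over all genes tested 38.6% were called, 20.7% higher and 17.9% lower. The median log2 fold change of the 8 was 0.33, against 0.00 over all genes. Groups were apart in the higher direction for 6 of 8 genes (30.3% of all genes) and in the lower direction for 1 (21.7% of all genes), and overlapped for Fcgr2a alone.

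Fcrl2 differed by far the most of the 8. Its FPKM was 66.1, 65.7 and 66.0 in C_Spinal and 487, 500 and 496 in T_Spinal, from 6214 to 7065 counts and from 47735 to 55155 counts. The T_Spinal libraries all stood far above the C_Spinal libraries. The log2 fold change was 2.87 (SE 0.200, adjusted p = 5.83e-06), 7.31-fold; of all genes tested, 1.58% were called and at least 2-fold higher, and no other gene of the 8 was. Across the alternative fits the log2 fold change lay between 2.86 and 2.97. The 19 tested microglia and macrophage markers, given beside it, had log2 fold changes from -1.23 to 1.51 in this comparison, with 12 higher and 2 lower. Relative to Fcer1g, the FPKM of Fcrl2 came to 0.0318 ± 0.0170, 0.105 ± 0.00203 and 0.912 ± 0.0366 in Sham, C_Spinal and T_Spinal.

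The inhibitory receptor was also higher with the decoction. Fcgr2b had 27.9, 28.3 and 30.4 FPKM in C_Spinal and 48.1, 53.4 and 54.5 in T_Spinal, higher on the log2 scale by 0.81 (SE 0.0612, adjusted p = 6.51e-06). Fcgr3a had 28.1, 27.0 and 28.1 FPKM in C_Spinal and 43.3, 43.1 and 40.1 in T_Spinal, higher on the log2 scale by 0.57 (SE 0.0661, adjusted p = 0.000115). The lowest T_Spinal library lay well above the highest C_Spinal library for both genes. Counted as 1 gene, because their spans overlap, they had a log2 fold change of 0.75 (SE 0.0432).

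The other activating receptors showed smaller differences. Fcgr2a had 89.8, 84.5 and 84.5 FPKM in C_Spinal and 86.6, 86.4 and 85.9 in T_Spinal, at a log2 difference of -0.04 (SE 0.119, adjusted p = 0.838), and 0.00112 with limma on log2(FPKM + 1). The T_Spinal values fell inside the C_Spinal range. Fcgr1a had 18.6, 18.5 and 20.1 FPKM against 21.2, 20.5 and 24.7, at a log2 difference of 0.175 (SE 0.146, adjusted p = 0.378). The libraries of Fcgr1a did not overlap, but the difference did not pass the test.

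The sum of the activating receptors Fcgr1a, Fcgr2a and Fcgr3a divided by Fcgr2b, in FPKM, was 2.58, 3.25 and 2.39 in Sham, 4.89, 4.60 and 4.36 in C_Spinal and 3.14, 2.81 and 2.77 in T_Spinal. The ratio was highest in the C_Spinal libraries, and the T_Spinal values overlapped those of Sham. With LOC108348047 added to the activating side, the means were 3.35 ± 0.473, 6.37 ± 0.275 and 3.93 ± 0.283. The ratio is a description of the 4 genes and was not tested.

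**Figure D2:**
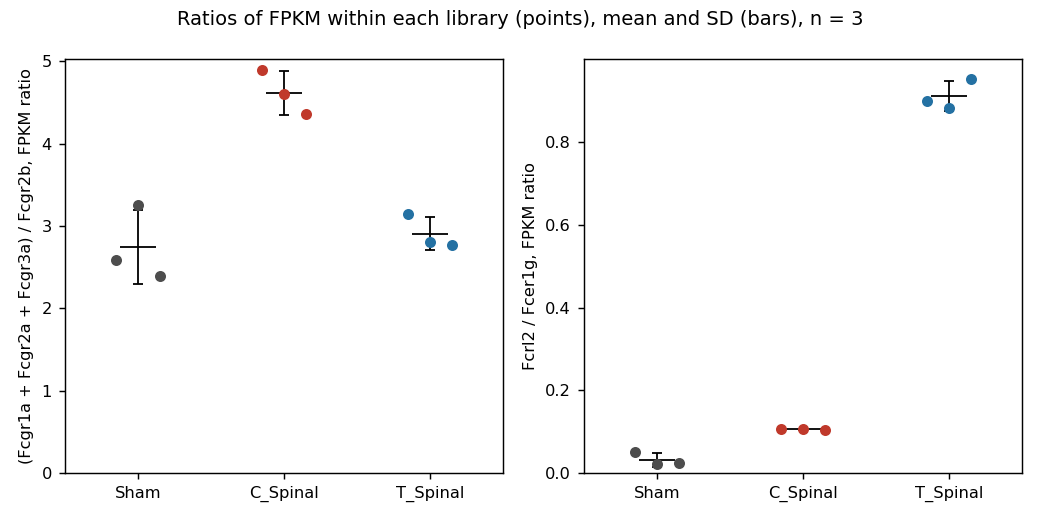
Ratios of FPKM within each library (vertical axes, linear, from 0) for activating over inhibitory IgG receptors and for Fcrl2 over Fcer1g; points are libraries, bars the mean and SD of 3. The receptor ratio is 4.36 to 4.89 in C_Spinal and 2.77 to 3.14 in T_Spinal, while the Fcrl2 ratio is highest in T_Spinal at a mean of 0.912.

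Fcer1g was lower with the decoction. It had 617, 624 and 641 FPKM in C_Spinal and 541, 567 and 520 in T_Spinal, a log2 difference of -0.25 (SE 0.0542, adjusted p = 0.00545). All 3 T_Spinal libraries lay under all 3 C_Spinal libraries. The call ended when each library's FPKM was rescaled to a common sum and tested with limma (-0.12, adjusted p = 0.0797), a scaling that moves the median log2 fold change of all genes to 0.10. Relative to the activating receptors, Fcer1g stood at 4.72 ± 0.169 in C_Spinal and 3.60 ± 0.164 in T_Spinal.

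Of the kinases, Btk was higher in T_Spinal and Syk did not pass the test. Btk had 5.28, 5.31 and 4.63 FPKM in C_Spinal and 7.10, 8.01 and 6.74 in T_Spinal, higher by 0.48 on the log2 scale (SE 0.116, adjusted p = 0.00854). Syk had 16.4, 17.2 and 17.1 FPKM in C_Spinal and 20.2, 19.0 and 17.3 in T_Spinal, at a log2 difference of 0.12 (SE 0.126, adjusted p = 0.483). The Syk groups did not overlap, by a narrow margin between T_Spinal replicate 3 and C_Spinal replicate 2. The ratio of Syk to Btk was 3.34 ± 0.310 in C_Spinal and 2.60 ± 0.240 in T_Spinal, without overlap.

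**Figure D3:**
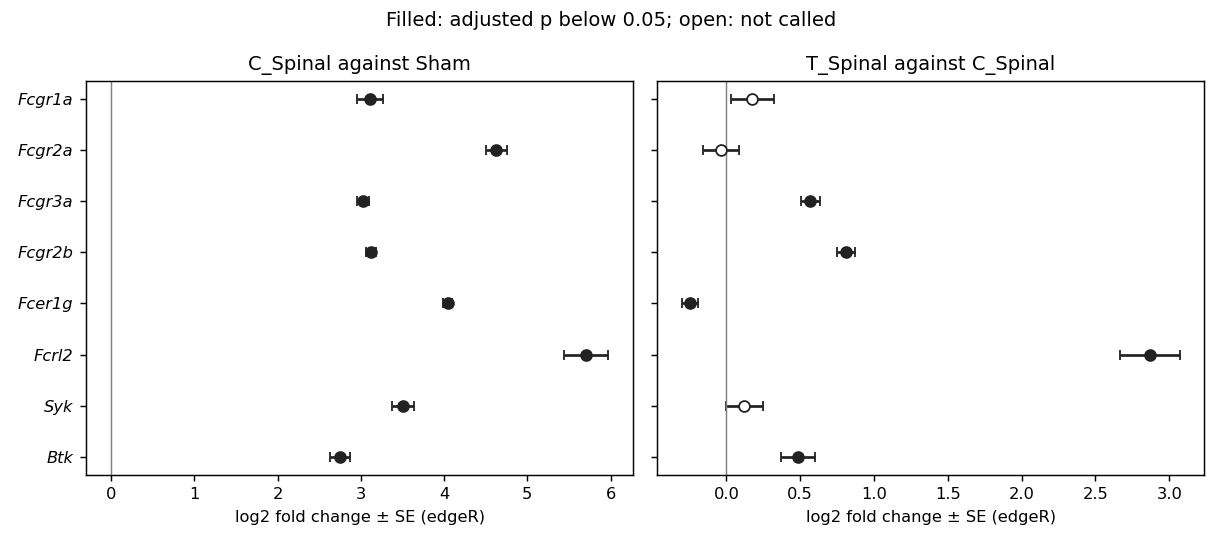
Fitted log2 fold changes (horizontal axes, points with SE) of the 8 genes for C_Spinal against Sham and T_Spinal against C_Spinal; filled points passed an adjusted p of 0.05. All 8 points are filled on the left, between 2.75 and 5.71, and on the right Fcrl2 stands at 2.87 with the others between -0.25 and 0.81. The panels share the C_Spinal libraries.

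Against Sham, with which C_Spinal was also compared, all 8 genes were higher in T_Spinal (71.5% of all genes were called, 35.0% higher and 36.6% lower), and no groups overlapped (45.0% of all genes in this direction, 30.7% in the other). The log2 fold changes ran from 3.23 (SE 0.121) for Btk to 8.57 (SE 0.267) for Fcrl2, with a median of 3.71. Without Sham replicate 1 the value for Fcrl2 was 9.23. Those of Fcgr1a, Fcgr2a, Fcgr3a and Fcgr2b were 3.28, 4.59, 3.60 and 3.93, and those of Fcer1g and Syk 3.80 and 3.63.

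Since the 8 genes were higher together after injury, the stretches in front of their starts were read where RefSeq's table held them, which was so for 4 of the 8 genes (5 starts). The 250 bases before the start are given for Fcgr3a, Syk and Btk in build GRCr8, in which these genes have other positions than in the deposited table. Capitals mark GAGGAA or its reverse complement, the PU box bound by PU.1, a factor of myeloid cells encoded by Spi1.
Fcgr3a, chr13:85782386-85782635, plus strand: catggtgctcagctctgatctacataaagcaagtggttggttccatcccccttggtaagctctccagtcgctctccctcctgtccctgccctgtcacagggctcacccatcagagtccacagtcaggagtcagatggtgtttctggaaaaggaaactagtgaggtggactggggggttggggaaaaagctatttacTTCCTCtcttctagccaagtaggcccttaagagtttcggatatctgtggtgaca
Syk, chr17:12813274-12813523, minus strand: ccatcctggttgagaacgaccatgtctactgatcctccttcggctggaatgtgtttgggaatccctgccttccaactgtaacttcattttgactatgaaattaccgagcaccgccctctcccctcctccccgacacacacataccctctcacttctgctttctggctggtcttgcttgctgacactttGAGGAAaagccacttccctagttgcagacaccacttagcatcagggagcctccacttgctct
Btk, chrX:102055144-102055393, minus strand: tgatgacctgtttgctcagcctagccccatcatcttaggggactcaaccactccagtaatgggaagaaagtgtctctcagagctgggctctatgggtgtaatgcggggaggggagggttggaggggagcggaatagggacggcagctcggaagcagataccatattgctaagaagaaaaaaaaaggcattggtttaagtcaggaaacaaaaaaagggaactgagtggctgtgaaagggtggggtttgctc
The motif GAGGAA was searched on both strands. It occurred once in the Fcgr3a stretch, 49 to 54 bases before the start, and once in that of Syk, 57 to 62 bases before the start. The Btk stretch held no match, and of the starts of Fcgr2a 1 held 2 matches and the other none. Of 33469 such stretches in the table, 23.3% held at least 1 match. Fcgr3a also held a match to a form of the interferon-stimulated element 96 to 105 bases before its start, found in 3.41% of stretches. Its match to GGAAGT, the ETS core, overlaps the PU box, and Syk held a further GGAAGT (19.2% of stretches). TGANTCA, a loose form of the AP-1 motif in which the middle base may be any, was found in 6.34% of stretches. Here it occurred, as TGAATCA, only in front of the Fcgr2a start that held no PU box. A match in letters is no evidence of binding. Spi1 itself had 3.29 ± 0.482, 38.0 ± 1.88 and 41.9 ± 3.15 FPKM in Sham, C_Spinal and T_Spinal, with a log2 fold change after injury of 3.40 and of 0.10 (adjusted p = 0.424) between T_Spinal and C_Spinal.

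The wider pathway was described by 7 lists, with 76 tested genes besides the 8. The lists were chosen with earlier results of these data known, so the shares over all genes are given for scale only. After injury 63 of the 76 were higher and 8 lower, with a median log2 fold change of 2.17, beside 38.1% higher and 37.4% lower and a median of 0.02 over all tested genes. Between T_Spinal and C_Spinal 35 were higher and 10 lower, with a median of 0.18, beside 20.7% and 17.9% and a median of 0.00. Genes were tested from a mean of 1 FPKM over all libraries, and 20 of the 76 lay under 1 FPKM in Sham and met this minimum through the injured groups, which favours higher calls after injury. Of the 8 genes, Btk was such a case.

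Of other Fc receptors, only Fcgrt and Trim21 reached the expression minimum, and 12 were looked up. Fcgrt, the neonatal Fc receptor that rescues IgG from breakdown, had 18.4 ± 1.56, 108.7 ± 3.02 and 69.0 ± 2.14 FPKM in the 3 groups. It was higher after injury by 2.44 on the log2 scale (SE 0.0557) and lower in T_Spinal than in C_Spinal at -0.69 (SE 0.0549, adjusted p = 8.78e-06). Trim21, the cytosolic antibody receptor, rose by 1.93 (SE 0.135) after injury. Fcer1a, the antibody-binding chain of the IgE receptor, had no counts in any library, which allows up to 3 counts per library and covers counting error only.

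Genes listed as ITAM adaptors and receptors other than Fcer1g, without a check of the motif in each, rose after injury in 7 of 7 tested cases. However, 5 of the 7 lay under 1 FPKM in Sham and were tested through their level in the injured groups. Clec7a, the beta-glucan receptor, rose by 7.53 (SE 0.222), from 0.358 to 71.8 FPKM. Trem1, an activating receptor of myeloid cells, and the adaptor Hcst were near 0 in Sham (0.0159 and 0.205 FPKM) and had 1.62 and 7.59 FPKM in C_Spinal. Tyrobp, the ITAM adaptor of Trem2 (named here after its values were seen), had 20.7 ± 1.75, 424.9 ± 7.40 and 402.5 ± 17.9 FPKM in the 3 groups. Its partner Trem2 had 6.52 ± 0.399, 138.2 ± 1.37 and 137.4 ± 1.18. Between T_Spinal and C_Spinal none of the 7 was higher and 1, the collagen receptor Oscar, was lower (-1.67, SE 0.485, adjusted p = 0.0240). The Oscar call ended without C_Spinal replicate 1 or 3 or any T_Spinal replicate, with adjusted p values of 0.0529 to 0.0737. The values of Tyrobp (-0.11, SE 0.0567, adjusted p = 0.140) and Trem2 (-0.04, adjusted p = 0.424) did not pass, and both turned to above 0 with FPKM rescaled to a common sum (0.00622 and 0.0769). With the 6 libraries of the comparison alone Tyrobp was called lower (-0.12, adjusted p = 0.0489).

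Src family kinases, which phosphorylate ITAMs, were higher after injury in 5 of 7 tested cases and lower in 2 (Fyn and Yes1). Fgr and Lyn, both known from myeloid cells, had log2 fold changes of 2.38 (SE 0.0904) and 1.79 (SE 0.0385). In T_Spinal Lyn was higher than in C_Spinal by 0.71 (SE 0.0377, adjusted p = 7.34e-07) and Fgr by 0.54 (SE 0.0874, adjusted p = 0.000906), and the other 5 did not pass. Lyn had 5.26 ± 0.0608, 19.8 ± 0.352 and 33.1 ± 1.33 FPKM in the 3 groups.

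Kinases and adaptors below the ITAM were higher after injury in 21 of 25 tested cases and lower in 2 (median 1.64). Vav1, an exchange factor for Rac, the kinase Tec and the actin regulator Was led with log2 fold changes of 3.26, 3.24 and 3.19. Between T_Spinal and C_Spinal 15 were higher and 1, Plcg1, was lower at -0.21 (median of the list 0.28). The largest rises were Pik3cg, a PI3K catalytic subunit of leukocytes (0.94, SE 0.0761), the adaptor Lat2 (0.69, SE 0.0952) and Blnk, the adaptor that joins Syk and Btk to phospholipase C (0.65, SE 0.0572). Blnk had 7.55 ± 0.677, 45.3 ± 1.23 and 72.7 ± 1.66 FPKM.

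The list of ITIM receptors was drawn by name, and the motif was not checked in each gene. Its genes were higher after injury in 16 of 16 tested cases. Of these, 9 lay under 1 FPKM in Sham and were tested through their level in the injured groups. Those with the largest fitted changes were near 0 in Sham: Lilrb4 went from 0.120 to 153.6 FPKM, the sialoadhesin gene Siglec1 from 0.0942 to 31.2 and Pirb from 0.0357 to 6.47. Between T_Spinal and C_Spinal the list was mixed, with 7 higher and 6 lower. Milr1, whose C_Spinal libraries varied (2.77 ± 1.81 FPKM), and Pirb were lower at -2.76 (SE 0.608, adjusted p = 0.00713) and -2.55 (SE 0.395, adjusted p = 0.000959), and the sialic acid receptor Siglec5 was higher at 1.43 (SE 0.169, adjusted p = 0.000138). Pirb and Lilrb4 have close paralogs, and which copy their reads came from is uncertain.

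Phosphatases and other brakes were higher after injury in 11 of 16 tested cases and lower in 3. Dok3, an adaptor that restrains ITAM signals, had a log2 fold change of 4.84 (SE 0.0934), the leukocyte phosphatase Ptprc 2.84 (SE 0.0613) and Ptpn6, the phosphatase SHP-1, 2.64 (SE 0.0896). In T_Spinal 10 were higher than in C_Spinal and 1, Dok3, was lower at -0.48. Inpp5d, the lipid phosphatase SHIP-1 that Fcgr2b recruits, was higher by 0.67 (SE 0.0448, adjusted p = 2.91e-06), with 4.69 ± 0.209, 17.0 ± 0.852 and 27.8 ± 0.415 FPKM in the 3 groups. Pag1 and the ubiquitin ligase Cbl were higher by 1.03 (SE 0.167) and 0.83 (SE 0.106).

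**Figure D4:**
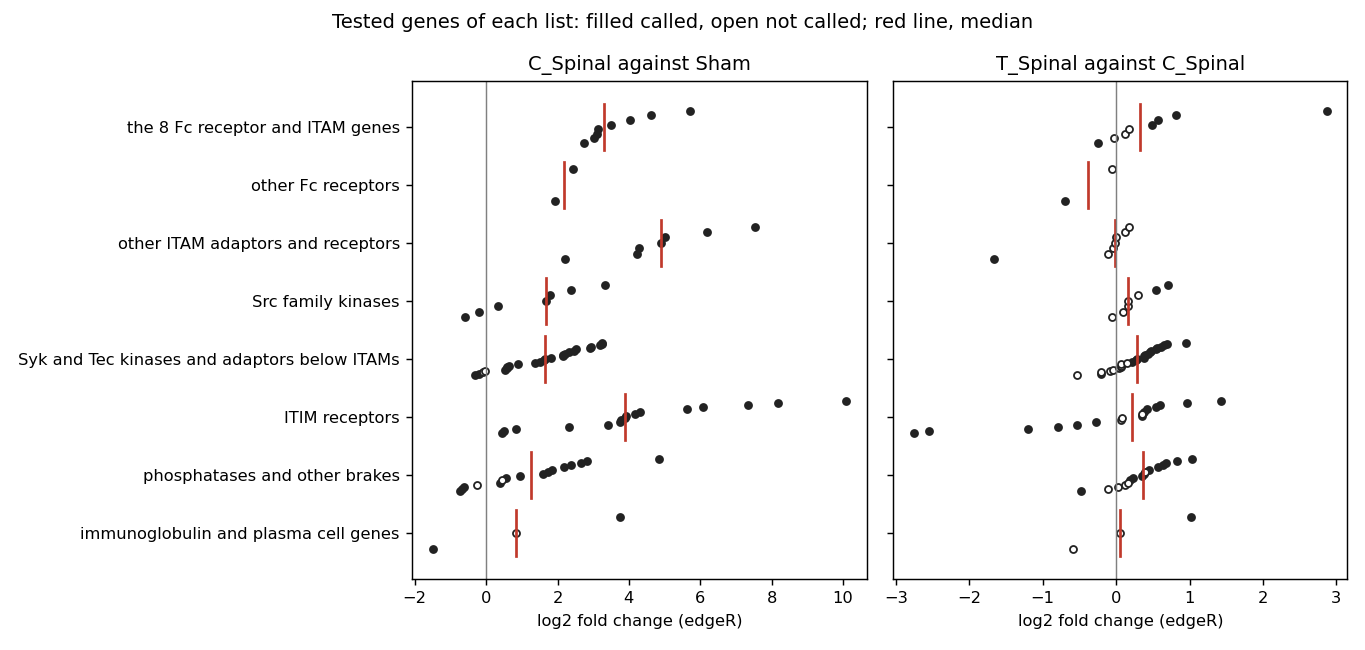
Fitted log2 fold changes (horizontal axes) of the 8 genes and of the tested genes of the 7 pathway lists (rows), filled where called and open where not; the red line is the median. After injury most points lie right of 0 in every row. Between T_Spinal and C_Spinal the genes listed as ITIM receptors spread from -2.76 to 1.43.

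Antibodies are the ligand of these receptors. Of the 16 immunoglobulin and plasma cell genes looked up, 8 had a row and 3 reached the minimum. Ighg1, the heavy chain constant gene of an IgG, had no counts in any library. Igha, Ighe, Ighg2a, Ighg2b, Ighg2c, Igkc and Iglc1 had no row, so whether their transcripts were present cannot be read here. Ighm lay under the minimum and was not tested, with 0.462, 1.23 and 0.734 FPKM in Sham, C_Spinal and T_Spinal. Sdc1, which is also made outside plasma cells, rose by 3.74 after injury (SE 0.175), Derl3 fell by 1.49 (SE 0.274), and Jchain did not pass. In T_Spinal Derl3 was higher than in C_Spinal by 1.02 (SE 0.274).

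Other cell types that carry Fc receptors were gauged by marker lists. None of 8 B cell markers reached the minimum, and they summed to 0.182 to 0.466, 0.388 to 0.677 and 0.508 to 1.24 FPKM in the 3 groups. Of 8 mast cell and basophil markers Cpa3, Fcer1a, Tpsb2 and Cma1 had no counts in any library, and Kit, which other cells also make, was the only one tested (7.85 FPKM in C_Spinal). Neutrophil markers summed to 1.96 to 2.51, 61.0 to 63.4 and 28.6 to 30.0 FPKM in the 3 groups. Mmp8 was the most abundant in both injured groups (36.5 and 14.1), and Elane had no counts in any library. Of the 4 tested, 3 were lower in T_Spinal than in C_Spinal and 1 was higher. The higher gene, Csf3r, had 2.02, 9.52 and 12.0 FPKM in the 3 groups (log2 fold change 0.30 between T_Spinal and C_Spinal). T and NK cell markers summed to 7.81 to 9.30, 83.6 to 89.7 and 139 to 143 FPKM, in the injured groups mostly from Cd4 and Cd8a, which rat macrophages can also express, and Cd3e had 0.0115, 0.287 and 0.527. Among macrophage and microglia markers, Csf1r had 41.2, 104.9 and 236.1 FPKM and Itgam 4.67, 16.0 and 30.7, both higher in T_Spinal than in C_Spinal. Genes known from resident microglia were higher as well, with log2 fold changes of 1.51 for Gpr34, 1.48 for Cx3cr1 and 1.44 for P2ry12, chosen after their values were seen. The 2 markers called lower were Lyz2, with 39.9, 1832 and 1471 FPKM (-0.35, SE 0.0311), and Olfml3, with 7.11, 84.7 and 36.9 FPKM (-1.23, SE 0.0564). Aif1 had 10.8, 86.3 and 91.6 FPKM and did not pass the test between these groups. Cd68 had 2.22, 625 and 509 FPKM without overlap and did not pass (adjusted p = 0.0877), but was called lower without Sham replicate 3 (adjusted p = 0.000472) and with the 6 libraries of the comparison alone (adjusted p = 0.000317). The part of these cells in the values of the 8 genes was not tested.

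The genes nearest to each of the 8 in the plane of their injury and decoction log2 fold changes were looked up among 12911 tested genes with a symbol. The nearest to Fcer1g was Cd14, an endotoxin co-receptor of myeloid cells, at 4.11 and -0.25, a distance of 0.0710. Syk had Ccr1, a chemokine receptor, nearest (0.0365), Btk had Gpr18 (0.0400), Fcgr2a had Tmem26 (0.0421), Fcgr2b had Adamts13 (0.0456) and Fcgr1a had Tnfsf13b, a B cell survival factor (0.0502). For Fcgr3a these were Ube2t (0.0494) and then Irf8 (0.0741). Fcrl2 had no close neighbour: the nearest, Nlrp6, lay 1.90 away at 4.29 and 1.59.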

How the data were processed

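Poly(A) RNA of 9 spinal cord libraries was sequenced from stranded paired-end libraries, per the labels' protocols. HISAT and StringTie are named in the submitters' processing notes; no version, build, annotation or strand setting is named in the sources used here. The authors deposited raw counts per gene and FPKM, per the file headers; a gene without reads carries a fixed small FPKM in place of 0. Whole-number counts were tested with edgeR 4.0.16 (R 4.3.3) quasi-likelihood models after TMM scaling, in 1 fit of all 9 libraries with no covariate, over the 14791 genes whose FPKM averaged 1 or more across the libraries, as all 8 genes did. A mean over all libraries can be reached through the high groups alone. Calls are two-sided Benjamini-Hochberg adjusted p below 0.05 over all tested genes. SE come from the fit's weights. Values are FPKM, the unit in which genes are compared. Averaged over tested genes, replicates differed by far more than counting noise (chi-square per degree of freedom at least 20.9). Genes with many counts can dominate that average, and it does not hold for each gene. For Fcrl2 the SD was 61.6% of the mean in Sham but 0.319% in C_Spinal, and for Fcgr2a it was 0.413% in T_Spinal. The fit was run on simulated data in which every gene had the same dispersion. Spread differs between genes here, so that run does not show how reliable the calls in these data are. The alternatives were limma 3.58.1 on log2(FPKM + 1) and log2(FPKM + 0.1), DESeq2 1.42.0, other scalings, no minimum, 6 libraries only, a replicate block and each library left out. The members and lists were chosen with earlier results of these data known. From each list up to 3 called genes of a comparison with the largest absolute change are named, and from marker lists the most abundant; others were chosen after their values were seen. A result that this rule would name is not reported here. Of 185 listed symbols 12 had no row. Promoters are from RefSeq (GRCr8). Figures were drawn with matplotlib 3.10.9.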

Additional observations from a re-analysis of the deposited data

How the results depend on the processing

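The 8 genes kept their direction and call after injury, and in T_Spinal against Sham, under all alternatives run. Their log2 fold changes there were 1.72 (Btk, limma on FPKM rescaled to a common sum) to 9.23. Between T_Spinal and C_Spinal 5 of the 8 were called in every alternative except the common-sum rescaling, chosen after seeing the data, which called 4. Fcgr2a, not called, changed sign with limma on log2(FPKM + 1) (0.00112), on log2(FPKM + 0.1) (0.00114) and on rescaled FPKM (0.0854). The uncalled Cd8a (0.0318), Trem2 (0.0769) and Tyrobp (0.00622) changed sign under the rescaling, and LOC108348047 ranged from -0.0205 to 0.0703 with each library left out. The share of calls higher in T_Spinal than in C_Spinal was 53.6% with edgeR, 59.4% with limma on log2(FPKM + 1) and 75.1% with limma after the rescaling. For T_Spinal against Sham total-count scaling moved that share from 48.9% to 59.6%, and limma on log2(FPKM + 1) to 59.7%. With each library left out, calls between T_Spinal and C_Spinal ranged from 4775 to 5749 genes, against 5707, and 39 to 46 pathway genes, against 45. Same-numbered libraries did not deviate together (correlations of -0.0750 to 0.0354). The numbers thus showed no pairing, but a weak one, or one limited to some genes, would not be seen this way. With the replicate block, 5 of the 8 genes and 44 pathway genes were called between T_Spinal and C_Spinal, and 8 and 71 after injury. Sham levels of Fcrl2 rest on 74 to 217 counts a library.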

Other observations

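The deposited table assigns genes to KEGG pathways, which were looked up after the data had been seen. Of all tested genes 38.1% were higher and 37.4% lower after injury, and 20.7% were higher and 17.9% lower in T_Spinal than in C_Spinal. The pathway counts below were not tested against these shares. For Fc gamma R-mediated phagocytosis, 81 genes besides the 8 were tested: 41 were higher and 34 lower after injury (median log2 fold change 0.19), and 32 were higher and 13 lower in T_Spinal than in C_Spinal (median 0.10). For Fc epsilon RI signalling, 20 of 51 tested genes were higher and 28 lower after injury (median -0.20), and 23 were higher and 4 lower in T_Spinal than in C_Spinal (median 0.14). For B cell receptor signalling the numbers were 36 and 24 of 61 after injury (median 0.40) and 32 and 7 between the injured groups (median 0.14). For natural killer cell cytotoxicity they were 53 and 29 of 84 after injury (median 1.03) and 34 and 11 between the injured groups (median 0.15). These assignments hold many kinases and actin regulators that most cells make.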
